A study of Homo sapiens with 12 samples.

Results

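The AP-1 transcription factor genes and a few other immediate early genes were followed in cell lines of squamous carcinoma of the head and neck (HNSCC) under blockade of the epidermal growth factor receptor (EGFR). The set was chosen by symbol and comprised 10 of the 33514 gene symbols in the deposited tables: FOSL1, FOSL2, FOS and FOSB, JUN, JUNB and JUND, EGR1, IER2 and IER3. All 10 passed the filter on low counts, which left 17897 genes for testing. RNA of single cells had been sequenced from droplets, which counts unique molecular identifiers (UMIs) at the 3′ end of transcripts in each cell, for the established HNSCC lines SCC1, SCC6 and SCC25, described by the study as sensitive to cetuximab. Each line was given cetuximab, an antibody against EGFR, at 100 nM on each of 5 days (treated), or phosphate-buffered saline (PBS, untreated) over the same period. The 6 groups held 2 replicates each, 12 samples in all. No genetic change other than those the lines themselves carry was named. Whether the 2 replicates of a group were separate cultures or repeated libraries is not clear from the description, so that SDs, SEs and p-values measure only the spread between these samples.

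FOS and JUN family proteins pair through their leucine zippers into the AP-1 transcription factor, and a FOS protein needs a JUN partner to bind DNA. Growth factor receptors such as EGFR raise the transcription of FOS, FOSB, JUN, JUNB, EGR1, IER2 and IER3 within minutes through MAP kinases and serum response factor, and most of these transcripts are short-lived, while FOSL1 follows later and depends on sustained ERK signalling. Cell stress, including heat and the handling of cells, can raise many of the same genes.

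The members lie on 7 chromosomes of the GRCh38.p14 assembly (RefSeq). JUN is at chr1:58780791-58784047, FOSL2 at chr2:28392858-28417317, EGR1 at chr5:138465479-138469303 and IER3 at chr6:30743199-30744547. FOSL1 is at chr11:65892049-65900545 and FOS at chr14:75278828-75282230. JUNB at chr19:12791486-12793315, IER2 at chr19:13150411-13154911, JUND at chr19:18279694-18281622 and FOSB at chr19:45467996-45475179 share a chromosome. RefSeq promoter windows, from 250 bases before to 50 bases after the gene's start, were matched for 8 of the 10 genes, and FOSL1 and IER3 had no entry. Windows are printed for FOS and FOSB, whose levels moved together among the samples, and for EGR1 and JUN, whose levels did so less. Capitals mark matches on either strand to the AP-1 site TGACTCA, the cAMP response element TGACGTCA, its core TGACGT, which lies inside that element, the variant TGACATCA, the EGR site GCGNGGGCG and the CArG box, the site of serum response factor.
FOS, chr14:75278578-75278877, + strand: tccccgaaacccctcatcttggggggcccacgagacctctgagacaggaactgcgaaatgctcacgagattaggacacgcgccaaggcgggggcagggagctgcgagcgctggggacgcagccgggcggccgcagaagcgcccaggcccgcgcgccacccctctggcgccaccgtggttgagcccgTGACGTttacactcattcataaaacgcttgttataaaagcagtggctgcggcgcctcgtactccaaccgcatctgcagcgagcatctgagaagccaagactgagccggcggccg
FOSB, chr19:45467746-45468045, + strand: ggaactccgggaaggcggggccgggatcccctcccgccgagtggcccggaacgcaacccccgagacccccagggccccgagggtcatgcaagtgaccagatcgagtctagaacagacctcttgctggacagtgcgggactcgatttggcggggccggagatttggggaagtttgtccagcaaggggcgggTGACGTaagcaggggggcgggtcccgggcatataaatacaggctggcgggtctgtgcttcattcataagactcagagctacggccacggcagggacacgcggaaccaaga
JUN, chr1:58783998-58784297, - strand: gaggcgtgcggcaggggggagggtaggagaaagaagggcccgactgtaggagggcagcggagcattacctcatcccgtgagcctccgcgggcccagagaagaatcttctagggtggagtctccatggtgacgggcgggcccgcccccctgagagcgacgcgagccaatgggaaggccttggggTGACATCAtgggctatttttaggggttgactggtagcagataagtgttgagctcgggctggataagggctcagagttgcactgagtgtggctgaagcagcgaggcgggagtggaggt
EGR1, chr5:138465229-138465528, + strand: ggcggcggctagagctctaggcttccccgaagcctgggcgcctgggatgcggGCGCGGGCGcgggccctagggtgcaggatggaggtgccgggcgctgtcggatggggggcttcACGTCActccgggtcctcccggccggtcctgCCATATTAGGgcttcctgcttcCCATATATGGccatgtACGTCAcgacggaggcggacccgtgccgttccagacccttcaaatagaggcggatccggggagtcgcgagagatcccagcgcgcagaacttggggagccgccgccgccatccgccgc

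The FOS and FOSB windows each held the core TGACGT, starting 64 and 60 bases before the gene's start. EGR1 held 2 CArG boxes, starting 105 and 83 bases before the start, an EGR site and 2 cores on the opposite strand, and JUN held TGACATCA 67 bases before its start. Of the other windows, FOSL2 held TGACTCA and the core, JUND the full element TGACGTCA and a further core, and JUNB and IER2 held none of these letters. Among the 35116 RefSeq windows of the same length, 7.98% held the core, 4.95% TGACTCA, 2.61% TGACATCA, 1.85% TGACGTCA, 9.43% the EGR site and 1.29% a CArG box. The matches describe the letters only, and sites outside these windows, for FOS as for the other genes, were not searched.

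The samples held 961 to 2854 cells and 57057402 to 112170073 UMIs each, with a median of 24078.5 to 54864 UMIs per cell. Any pair of samples shared 1 to 13 cell barcodes. EPCAM, an epithelial marker, was found at 85.0 to 394 CPM (UMI counts scaled to a common library size) and the squamous keratin KRT17 at 492 to 6995 CPM in all samples, but KRT5 and KRT14 were nearly absent in SCC6, at 0.424 to 4.47 CPM. The leukocyte markers PTPRC and CD3E did not exceed 0.0691 CPM. In the same list of 10 markers of other cell types, the macrophage marker CD68 was at 3.30 to 205 CPM and the fibroblast marker LUM at 0.0105 to 58.0 CPM. Both were highest in SCC25, where the summed level of the list was 175 to 238 CPM, against 3.95 to 30.7 CPM in SCC1 and SCC6. The part of these markers in the SCC25 results was not tested. One library stood apart. In untreated SCC6 replicate 1 the stress-inducible chaperone HSPA6 was at 81.3 CPM, against 0.0210 to 0.534 CPM in the other 11 samples. For the effect of cetuximab in SCC6 on FOSL1, FOSL2, JUN and the named genes of other lists, values are therefore also given without this library or without the cells that carried HSPA6. This choice was made after seeing the data. The EGR1 effect in SCC6 and the comparisons of untreated lines are not given in this way.

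**Figure D1:**
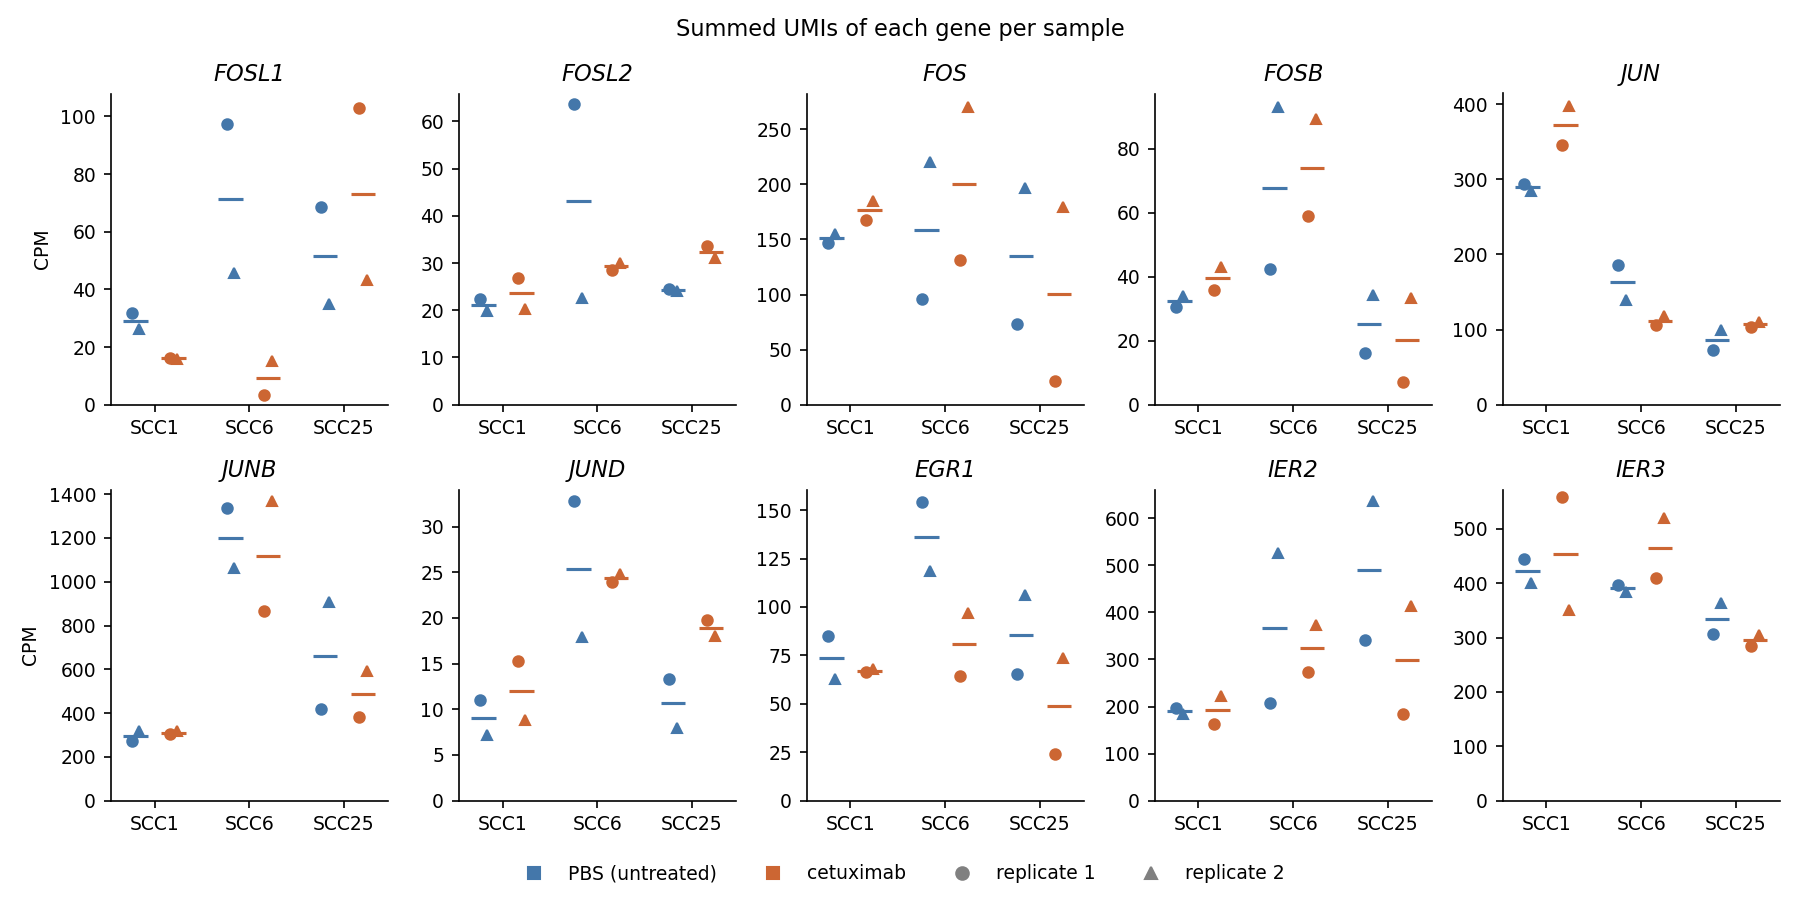
Level of each of the 10 genes in CPM (vertical axis, from 0) in the 3 lines (horizontal axis). Each point is 1 sample, circles are replicate 1, triangles replicate 2, blue is PBS, orange is cetuximab, and bars are means of 2 samples. FOSL1 in SCC6 falls from 97.4 and 45.6 to 3.21 and 15.0 CPM, while in FOS the 2 symbols of SCC6 and SCC25 lie further apart than the 2 colours.

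FOSL1 was the only member whose level changed past the threshold with cetuximab in any line. FOSL1 (FRA-1) is a FOS family protein tied to invasion in epithelial tumours. In SCC6 it stood at 97.4 and 45.6 CPM in the untreated samples and at 3.21 and 15.0 CPM in the treated ones. Both treated samples lay below both untreated ones, although the replicates within each treatment differed as well, by 2.14-fold and 4.68-fold. The group means were 71.5 ± 36.6 and 9.11 ± 8.35 CPM (SD, n = 2), and FOSL1 fell by 2.97 ± 0.70 on the log2 scale (SE, edgeR quasi-likelihood test, adjusted p (FDR) = 0.0456 over 17897 genes). It was thus 1 of 10 members called in SCC6, against 3.81% of all genes tested. The fold stayed low without the HSPA6-bearing cells (-3.04 ± 0.72, FDR = 0.0484) and with replicate number as a block (-3.21 ± 0.68, FDR = 0.0149). Without untreated SCC6 replicate 1 the log2 fold change was -2.32 ± 0.76 and the call was lost (FDR = 0.282), as it was without treated SCC6 replicate 1 (-2.25 ± 0.65, FDR = 0.211), with the 4 SCC6 samples fitted alone (FDR = 0.0984) and without any 1 of the 4 SCC1 libraries (FDR = 0.0684 to 0.0702). Without treated SCC6 replicate 2 it was -4.49 ± 0.75 (FDR = 0.0289).

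In SCC1, FOSL1 was at 31.8 and 26.2 CPM in the untreated and at 16.4 and 15.8 CPM in the treated samples. The treated samples were again the lower ones without overlap, but the difference of -0.85 ± 0.66 did not pass the test (FDR = 0.833). In SCC25 the values were 68.4 and 35.0 CPM untreated and 103 and 43.2 CPM treated, with overlapping groups and a log2 fold change of 0.50 ± 0.65 (FDR = 1). Over the 3 lines the effect was -1.11 ± 0.38 (FDR = 0.135), and it passed with the replicate block (-1.20 ± 0.35, FDR = 0.0416), with the Wald test of DESeq2 (FDR = 0.0317) and without treated SCC6 replicate 2 (-1.61 ± 0.32, FDR = 0.0365). The difference in the FOSL1 effect between lines was tested as an interaction of line and treatment, with a p of 0.0129 and FDR = 0.507.

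The change in SCC6 was seen in the share of cells with FOSL1 as well as in the summed level. Each cell was thinned to 15000 UMIs, so that samples of different depth could be compared. FOSL1 was then found in 49.3% (95% exact interval 47.4 to 51.2) and 35.8% (33.8 to 37.7) of untreated SCC6 cells and in 4.40% (3.64 to 5.26) and 14.0% (12.3 to 15.7) of treated ones. Before thinning the shares were 64.3% and 58.2% untreated and 6.17% and 31.9% treated. In SCC1 the thinned shares were 29.7% and 25.7% untreated and 19.5% and 19.2% treated, and in SCC25 they were 47.4% and 25.3% untreated and 58.8% and 26.5% treated. PTPRC, CD3E, ALB and HBB, which these cells should lack, were found in at most 0.160% of thinned cells of any sample. All cells of a sample are of 1 line, so no cell type that lacks FOSL1 was at hand, and the share of cells that hold free FOSL1 RNA was not measured. These intervals cover counting error only.

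FOSL2 (FRA-2) has a role in differentiating epithelium and is, like FOSL1, without a transactivation domain. It stood at 63.7 and 22.6 CPM in untreated and 28.5 and 30.0 CPM in treated SCC6 samples, where untreated replicate 1 was above all 11 other samples. In SCC25 both treated samples (33.6 and 31.1 CPM) were above both untreated ones (24.4 and 24.0 CPM), and in SCC1 the groups overlapped, with 22.5 and 19.8 against 26.7 and 20.4 CPM. The log2 fold changes of 0.16 ± 0.38 in SCC1, -0.56 ± 0.38 in SCC6 and 0.42 ± 0.37 in SCC25 did not pass the test. The SCC6 value was 0.37 without untreated replicate 1 and -1.13 without untreated replicate 2, the latter past the threshold (FDR = 0.0342).

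FOS, the prototype of the family, showed the widest gap between replicates of any member. In SCC25 it was at 73.7 and 197 CPM in the untreated and at 21.8 and 179 CPM in the treated samples. Replicate 2 was 2.67-fold and 8.21-fold above replicate 1, and the groups overlapped. In SCC6 the values were 96.3 and 221 CPM untreated and 131 and 270.0 CPM treated, again with replicate 2 the higher one in both arms. SCC1 was steadier, at 147 and 155 CPM untreated and 168 and 185 CPM treated, and here both treated samples were the higher ones. The log2 fold changes with cetuximab were 0.22 ± 0.79 in SCC1, 0.34 ± 0.79 in SCC6 and -0.43 ± 0.79 in SCC25, each smaller than its SE (FDR = 1, 0.865 and 1). As the fit shares the spread over the groups, the SE in SCC1 also reflects the wider gaps between replicates in SCC6 and SCC25.

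FOSB, which like FOS carries a transactivation domain, kept the same order of samples within each line as FOS, apart from SCC6. It stood at 30.7 and 34.1 CPM untreated and 36.0 and 43.0 CPM treated in SCC1, at 42.5 and 93.1 against 58.9 and 89.5 CPM in SCC6, and at 16.3 and 34.3 against 7.01 and 33.5 CPM in SCC25. The treated samples were the higher ones without overlap in SCC1, and the groups overlapped in the other lines. No FOSB fold change passed the test (0.29 ± 0.62, 0.13 ± 0.62 and -0.32 ± 0.62 in SCC1, SCC6 and SCC25).

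JUN, the AP-1 partner that activates most strongly, went in opposite directions in the lines, with no group overlapping in any of them. In SCC1 it was at 294 and 284 CPM untreated and 346 and 398 CPM treated, a log2 fold change of 0.36 ± 0.21 (FDR = 0.723). In SCC25 it was at 72.5 and 100.0 CPM untreated and 104 and 111 CPM treated (0.31 ± 0.21, FDR = 0.965). In SCC6 it was at 186 and 139 CPM untreated and 106 and 117 CPM treated (-0.54 ± 0.21, FDR = 0.194). None of the 3 differences passed the test, nor did the interaction of line and treatment (edgeR, FDR = 0.571). Without the cells that carried HSPA6 before thinning the SCC6 difference was -0.25 ± 0.20, and without untreated SCC6 replicate 1 it was -0.33 ± 0.24.

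JUNB and JUND are JUN family members that in many settings restrain growth where JUN promotes it. JUNB was at 274 and 319 CPM untreated and 303 and 319 CPM treated in SCC1, at 1336 and 1061 against 866 and 1367 CPM in SCC6, and at 417 and 905 against 384 and 593 CPM in SCC25. The groups overlapped in every line, and no fold change passed the test (0.07 ± 0.36, -0.10 ± 0.36 and -0.44 ± 0.36). JUND was counted less often, at 7.22 to 32.8 CPM. Its treated SCC25 samples, at 19.8 and 18.0 CPM, both exceeded the untreated ones, at 13.3 and 7.99 CPM, with a log2 fold change of 0.83 ± 0.37 and a p of 0.0505 that was lost on adjustment (FDR = 0.865). JUND groups overlapped in SCC1 and SCC6.

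EGR1, a zinc finger transcription factor induced through ERK and serum response factor, was at 154 and 118 CPM in untreated and 64.4 and 96.9 CPM in treated SCC6 samples. The treated samples were the lower ones without overlap, and the log2 fold change was -0.76 ± 0.45 (FDR = 0.388). In SCC25 it was at 65.2 and 106 CPM untreated and 24.2 and 73.9 CPM treated, where each treated sample lay below the untreated sample of its number but the groups overlapped (-0.80 ± 0.45, FDR = 0.929). The SCC25 value was -0.19 without treated replicate 1 and -1.82 without treated replicate 2, neither past the threshold. In SCC1 the values were 84.8 and 62.7 CPM untreated and 66.2 and 67.8 CPM treated. Over the 3 lines the EGR1 effect was -0.57 ± 0.26 (FDR = 0.258), and it passed with the replicate block (-0.62 ± 0.16, FDR = 0.0259) and without treated SCC25 replicate 2 (-0.91 ± 0.19, FDR = 0.0400).

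IER2 and IER3 are short immediate early genes, IER2 a nuclear protein and IER3 a regulator of survival and ERK signalling. IER2 was at 198 and 184 CPM untreated and 164 and 222 CPM treated in SCC1, at 207 and 527 against 274 and 373 CPM in SCC6, and at 341 and 638 against 185 and 413 CPM in SCC25. Its groups overlapped in every line (0.02 ± 0.48, -0.18 ± 0.48 and -0.71 ± 0.48 on the log2 scale). The SCC25 value of IER2 ran from -1.41 without treated replicate 2 to -0.19 without untreated replicate 2. IER3 varied least among the samples relative to its level, from 284 to 559 CPM. Both treated samples were higher in SCC6 (409 and 519 against 397 and 385 CPM) and both were lower in SCC25 (284 and 305 against 306 and 364 CPM), and the fold changes of 0.25 ± 0.23 and -0.18 ± 0.23 did not pass the test.

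**Figure D2:**
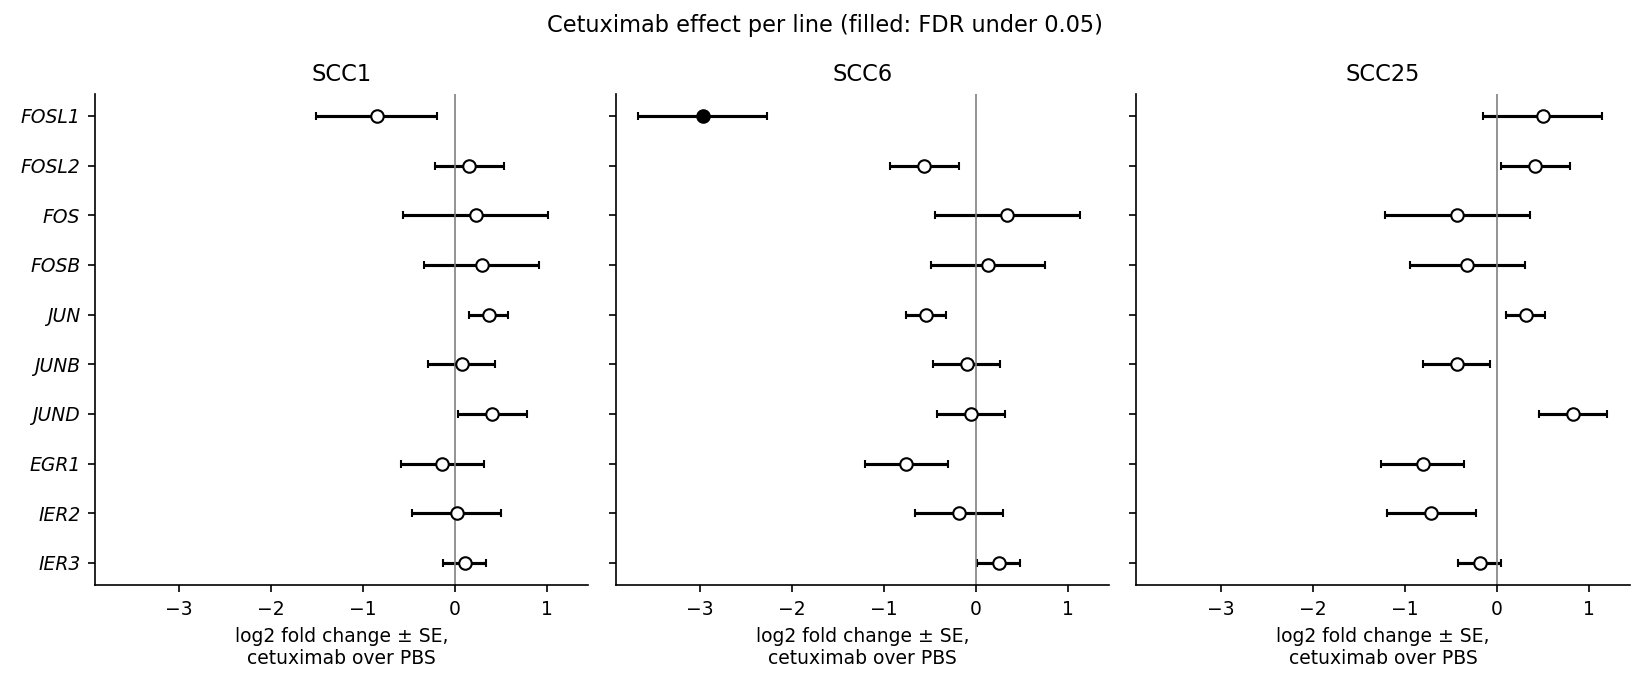
Log2 fold change of cetuximab over PBS (horizontal axis) for the 10 genes (vertical axis) in each line, with bars of 1 SE from the edgeR fit. Filled points have an FDR under 0.05: only FOSL1 in SCC6, at -2.97, is filled.

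Samples of the treatments did not overlap for 4 of 10 members in each line. In SCC1 these were FOS, FOSB and JUN (higher) and FOSL1 (lower), against 42.7% of all genes tested (22.3% higher and 20.4% lower). In SCC6 they were IER3 (higher) and FOSL1, JUN and EGR1 (lower), against 46.9% of all genes (25.5% higher and 21.4% lower), and in SCC25 FOSL2, JUN and JUND (higher) and IER3 (lower), against 29.7% (14.4% higher and 15.3% lower). The number of members without overlap was therefore near the background. By the edgeR test, 0 of 10 members were called in SCC1 and in SCC25, where 0.0168% and 0% of all genes were called, and 0 had a p under 0.05. DESeq2 called 0 members in these lines as well. Over the 3 lines edgeR called 0 of 10 members (3.86% of all genes), 1 with a p under 0.05 (FOSL1), and with the block it called FOSL1 and EGR1, when 21.2% of all genes were called. The interaction was called for 0 of 10 members and 0% of all genes, with a p under 0.05 for FOSL1 and JUN. The members had a median log2 fold change of 0.13 (SCC1), -0.14 (SCC6) and -0.25 (SCC25), beside 0.00 for all genes in SCC1 and SCC6 and -0.01 in SCC25.

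**Figure D3:**
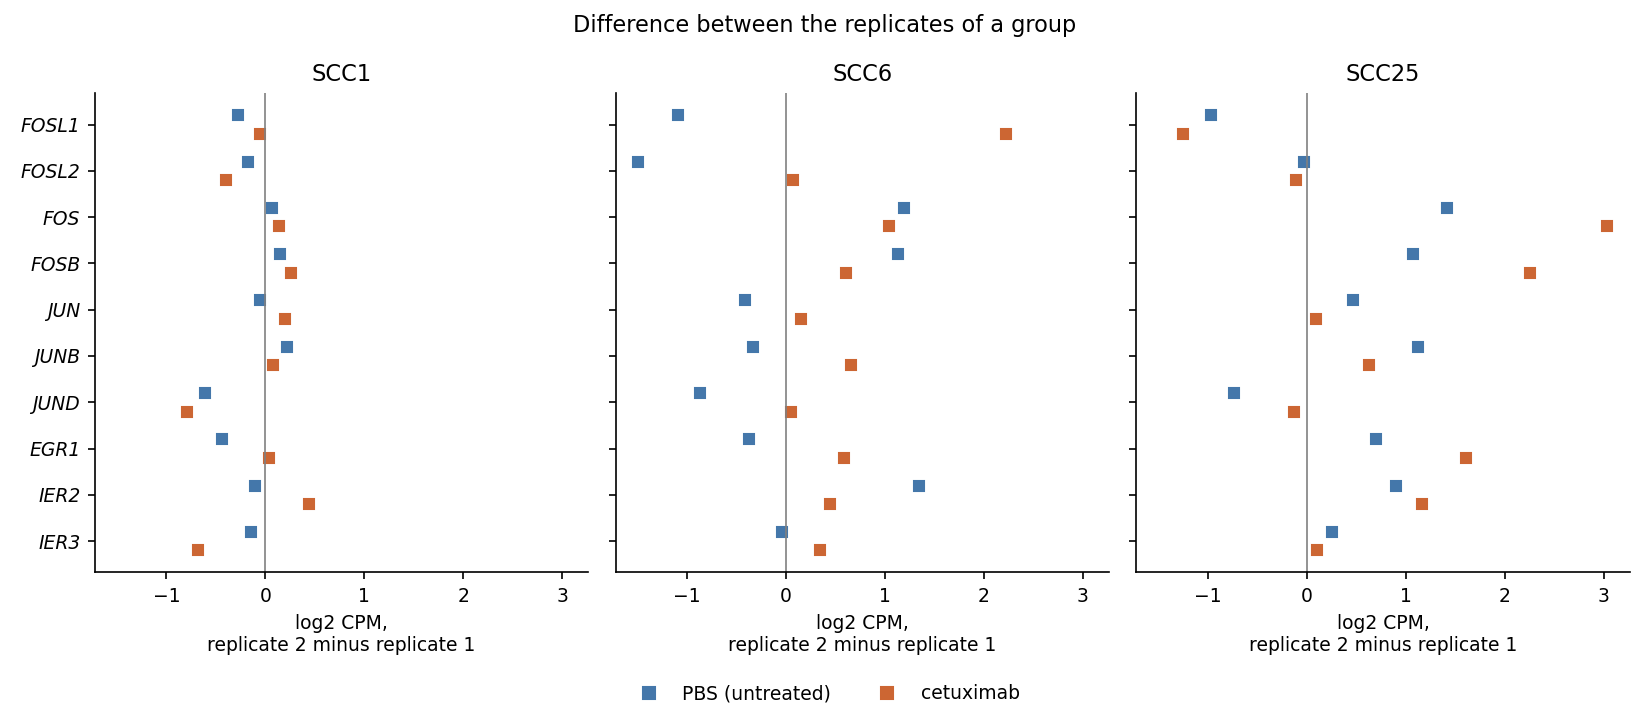
Difference in log2 CPM between replicate 2 and replicate 1 of the same group (horizontal axis) for the 10 genes (vertical axis) in each line, blue for PBS and orange for cetuximab. In SCC6 and SCC25 the points of FOS, FOSB and IER2 lie to the right in both arms, up to 3.04 for FOS in treated SCC25, and in SCC1 the FOS and FOSB points lie within 0.26 of 0.

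The replicates of a group differed more in these genes than in the median gene in SCC6 and SCC25. The median absolute log2 difference between replicates was 0.956 for the 10 members and 0.321 for the 7558 genes with a mean of at least 10 CPM in untreated SCC6. It was 0.515 against 0.309 in treated SCC6, 0.797 against 0.358 in untreated SCC25 and 0.893 against 0.266 in treated SCC25. In SCC1 the members' values were 0.158 untreated and 0.226 treated, close to the 0.212 and 0.216 of those genes.

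The genes did not all move the same way between replicates. Of the genes with a mean of at least 10 CPM, 49.6% (untreated SCC6) to 58.9% (untreated SCC1) were higher in replicate 2 of a group. FOS and FOSB were higher in replicate 2 in 6 of 6 groups, by 1.05-fold to 8.21-fold and 1.11-fold to 4.78-fold, and IER2 and JUNB in 5 of 6. FOSL1, FOSL2 and JUND were higher in replicate 2 in only 1 of 6 groups each. The summed level of 13 heat-shock genes was also higher in replicate 2 in 6 of 6 groups, by 1.12-fold to 1.74-fold, and so was the median mitochondrial share of UMIs, by 1.14-fold to 1.62-fold. The median number of UMIs per cell was higher in replicate 2 in 5 of 6 groups. The part of these differences in the levels of FOS, FOSB and IER2 was not tested.

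The untreated lines differed in the JUN family and in IER2. These comparisons share the untreated samples between them. JUN was highest in untreated SCC1 (289 ± 7.34 CPM, SD, n = 2), followed by SCC6 (163 ± 33.0 CPM) and SCC25 (86.3 ± 19.5 CPM). Each step passed the test, with log2 differences of -0.83 ± 0.22 between SCC6 and SCC1 (FDR = 0.0114), -0.92 ± 0.22 between SCC25 and SCC6 (FDR = 0.00700) and -1.75 ± 0.22 between SCC25 and SCC1 (FDR = 0.000192). JUNB had another order, with 1198 ± 194 CPM in SCC6, 661 ± 346 CPM in SCC25 and 296 ± 32.0 CPM in SCC1. It was higher than in SCC1 by 2.02 ± 0.37 in SCC6 (FDR = 0.00186) and by 1.16 ± 0.36 in SCC25 (FDR = 0.0278), and the difference between SCC25 and SCC6 did not pass (-0.86 ± 0.36, FDR = 0.0832).

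JUND was highest in untreated SCC6, at 25.4 ± 10.5 CPM, and exceeded SCC1 (9.10 ± 2.66 CPM) by 1.48 ± 0.38 and SCC25 (10.6 ± 3.75 CPM) by a log2 difference given as SCC25 over SCC6 of -1.25 ± 0.38 (FDR = 0.0108 and 0.0224). The difference of JUND between SCC25 and SCC1 did not pass (0.23 ± 0.37, FDR = 0.662). IER2 was at 489 ± 210 CPM in SCC25, 367 ± 226 CPM in SCC6 and 191 ± 9.89 CPM in SCC1, and only SCC25 over SCC1 passed (1.36 ± 0.49, FDR = 0.0475). Without 1 library, the call was lost for JUN between SCC6 and SCC1 (3 libraries, FDR up to 0.0793) and between SCC25 and SCC6 (2 libraries, up to 0.0558), for JUNB between SCC25 and SCC1 (3 libraries, up to 0.292), for JUND in both comparisons (2 libraries each, up to 0.186) and for IER2 (7 libraries, up to 0.269).

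In all, 3 of 10 members were called between SCC6 and SCC1, 3 between SCC25 and SCC1 and 2 between SCC25 and SCC6, against 40.2%, 40.8% and 40.9% of all genes. With replicate number as a block the counts were 7 (57.5% of all genes), 3 (58.8%) and 4 (58.1%), and the added calls were EGR1, FOSB, FOSL2 and IER2, all higher in SCC6 than in SCC1, and FOSB and JUNB between SCC25 and SCC6. FOS, FOSL1 and IER3 were called in none of the 3 comparisons. Untreated FOS was at 151 ± 5.39, 158 ± 87.9 and 135 ± 86.9 CPM in SCC1, SCC6 and SCC25.

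**Figure D4:**
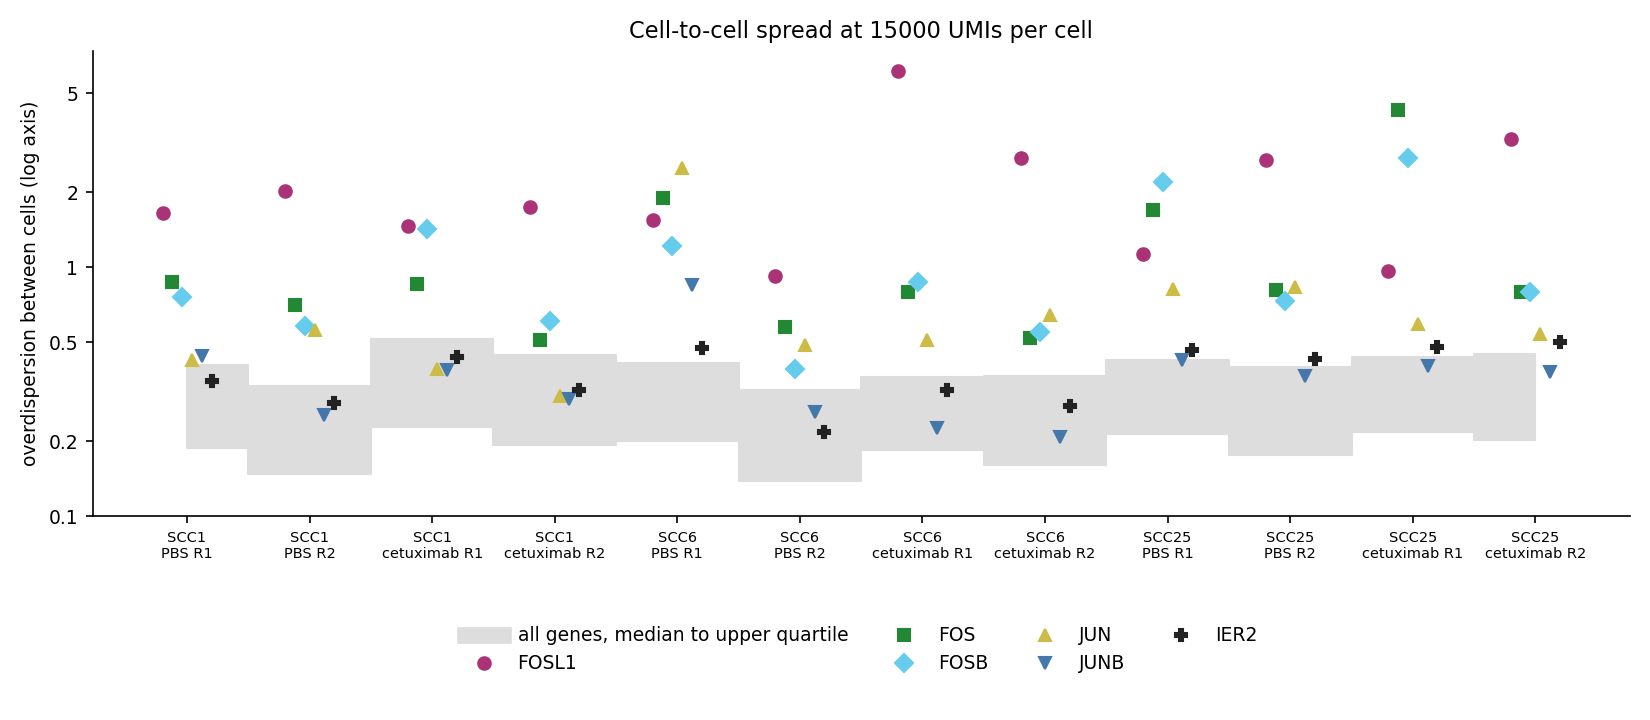
Overdispersion between cells (vertical axis, log scale) of 6 genes in each of the 12 samples (horizontal axis), with cells thinned to 15000 UMIs. The grey band runs from the median to the upper quartile of 8923 genes: FOSL1, FOS and FOSB lie above the band in every sample, and FOSL1 reaches 6.12 in treated SCC6 replicate 1.

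Within a sample, these genes were spread unevenly over cells. The spread was measured as the overdispersion φ, the variance beyond counting noise divided by the squared mean. All 10 members were above the median φ of the 8923 genes with enough counts in 11 of 12 samples, and 9 of 10 were above it in treated SCC1 replicate 1. FOSL1 had the highest median over the samples, at 1.70 (0.924 to 6.12), followed by FOS at 0.802 (0.509 to 4.27) and FOSB at 0.777 (0.389 to 2.75), and these 3 were above the upper quartile of all genes in 12 of 12 samples. JUNB, at 0.372 (0.207 to 0.845), and IER2, at 0.388 (0.218 to 0.502), were the most even members. JUNB was above that quartile in 2 of 12 samples and found in 95.4% to 99.6% of thinned cells.

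The effect of cetuximab on this spread was tested with limma on log2(φ + 0.1), and 0 of 10 members were called in any line or across lines, against 0.0897% of all genes in SCC1, 0.0784% in SCC6, 0.0560% in SCC25 and 0.0112% across lines. An unadjusted p under 0.05 was reached by FOSL1 in SCC6 and by JUND in SCC1. The φ of FOSL1 was 1.54 and 0.924 in untreated and 6.12 and 2.74 in treated SCC6 samples, without overlap, a difference of 1.70 on the log2 scale (limma, FDR = 0.687). The higher spread came with the lower level of FOSL1 in those samples. The φ of JUND was 0.613 and 1.42 in untreated and 0.194 and 0.420 in treated SCC1 samples, a difference of -1.41 (limma, FDR = 0.467). FOS was most uneven where it was lowest, with a φ of 4.27 in treated SCC25 replicate 1, where it was found in 22.1% of cells, and 0.791 in replicate 2, where it was found in 77.6%.

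**Figure D5:**
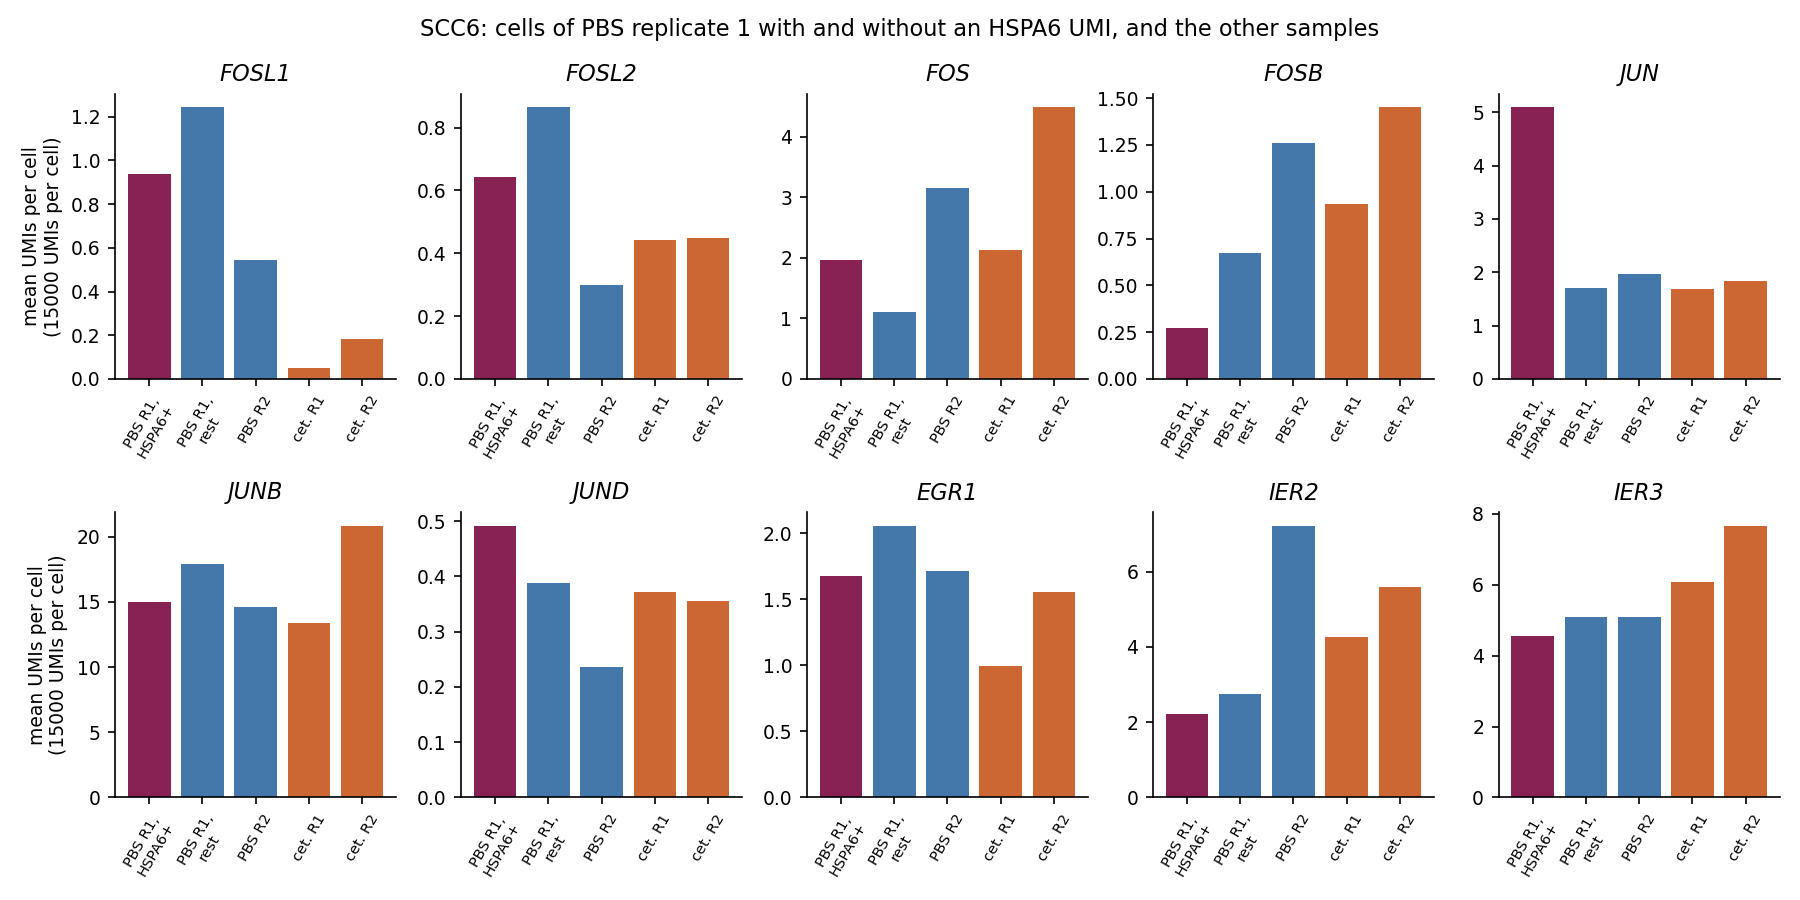
Mean UMIs per cell at 15000 UMIs per cell (vertical axis, from 0) of the 10 genes in SCC6. Bars show the 555 cells of untreated replicate 1 with an HSPA6 UMI (purple), its other 2097 cells and untreated replicate 2 (blue) and both treated samples (orange): JUN stands at 5.10 in the first bar and at 1.69 to 1.97 in the others.

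The cells of untreated SCC6 replicate 1 were the most uneven for JUN (φ = 2.49), IER3 (0.955), JUNB (0.845) and EGR1 (1.38) among the 12 samples. The fits without HSPA6-bearing cells left out every cell with an HSPA6 UMI before thinning, whereas the values here and in the next paragraph use HSPA6 after thinning. Without its cells that carried HSPA6 the φ in this library was 2.41 for JUN, 0.897 for IER3, 0.801 for JUNB and 1.36 for EGR1. HSPA6 was found in 555 of 2652 of its thinned cells (20.9%, 95% Wilson interval 19.4 to 22.5), against at most 0.573% in any other sample. Cells with HSPA6 held 5.10 UMIs of JUN on average and the other cells of the sample 1.70. The latter lay beside the 1.97 of untreated replicate 2 and the 1.69 and 1.83 of the treated samples, and the untreated and treated samples overlapped in these values. FOS was also higher in the cells with HSPA6, at 1.97 against 1.10 UMIs, whereas FOSB was lower, at 0.274 against 0.671, and IER2 was at 2.23 against 2.75.

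FOSL1 was not raised in the cells with HSPA6, at 0.939 UMIs against 1.24 in the other cells, and both values lay above the 0.544 of untreated replicate 2 and the 0.0521 and 0.184 of the treated samples. The level of FOSL1 in this library was therefore as high without these cells. Its other cells still differed from the other SCC6 samples in the heat-shock gene DNAJB1. They held 2.92 UMIs of it, against 1.48 in untreated replicate 2 and 1.00 and 1.23 in the treated samples. For HSPA1A, another heat-shock gene, their 1.39 UMIs lay among the other samples (1.81, 0.472 and 1.55). The part of this state in the level of FOSL1 was not tested. The median depth was 35935 UMIs in the cells with HSPA6 and 32094 in the others, and the median mitochondrial shares were 3.10% and 3.59%. These are values over cells of 1 library, with no test.

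Within samples, the levels of FOS, FOSB, JUNB, EGR1 and IER2 were positively correlated from cell to cell, and those of FOSL1 and FOS negatively. Pearson's r between genes was computed over the thinned cells of each sample and is given as a description, since cells of a sample share their library. JUNB and IER2 had the highest median r over the 12 samples, at 0.355 (0.313 to 0.655), followed by FOS and FOSB at 0.324 (0.268 to 0.365) and EGR1 and IER2 at 0.276 (0.215 to 0.388). Each of these pairs was positive in 12 of 12 samples. FOS and FOSL1 had the lowest median of the 45 pairs, at -0.141 (-0.236 to -0.0285), a weak value that was nonetheless negative in all 12 samples. The mean r of JUNB and IER2 was 0.443 in untreated and 0.388 in treated samples, and that of FOS and FOSB 0.320 and 0.316.

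Of the 3786 other genes with enough counts, those most like FOS from cell to cell were FOSB, IER2, NEAT1, JUNB and the MAP kinase phosphatase DUSP1, with a mean r over 12 samples of 0.318 to 0.240. Those most like FOSL1 were HMGA1, DRAP1, UPP1, CCDC85B and RANBP1 (0.261 to 0.197), none of them a member of the early gene lists, and those most like IER3 were NFKBIA, JUNB, CXCL8, INHBA and IER2 (0.222 to 0.176). Over the 12 samples, with the line mean subtracted from log2(CPM + 1), the gene most like FOS was FOSB (r = 0.989), followed by MAGEF1, HES1, ZNF7 and PDCD4 (0.915 to 0.895). SH2D4A, CDC42EP1, FAM210A, PFDN2 and YRDC were most like FOSL1 (0.969 to 0.954), and SGK1, TMTC3, OSTF1, CHMP1B and MFN1 most like IER3 (0.814 to 0.650). These are the extremes of a search over 7557 genes and are given without a test.

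Other genes of the pathway were called by the main edgeR fit within SCC6, and 0 of each list were called in SCC1 and in SCC25. The alternatives called some in these lines. In SCC1 DESeq2 called 1 AP-1 or bZIP partner gene, and the block called 1 such gene, 1 other early gene and 1 heat-shock gene. In SCC25 DESeq2 called 1 other early gene. Calls among AP-1 targets are given below, and both fits called more of all genes as well. Among 12 other AP-1 and bZIP partner genes, those called in SCC6 included MAFF and MAF, where 3.81% of all genes were called. MAFF, a small MAF protein induced by growth factors, fell by 2.92 ± 0.60 on the log2 scale (FDR = 0.0290), from 40.5 ± 31.2 to 5.34 ± 3.25 CPM. MAF, a large MAF protein that acts in differentiation, rose by 3.95 ± 0.77 (0.0663 ± 0.0601 to 1.07 ± 0.738 CPM, FDR = 0.0328). These MAF levels lie near the floor, and MAF was at 0 CPM in untreated and treated SCC1.

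Of 27 other early genes, 3 fell in SCC6 and none rose, where 3.81% of all genes were called, with a median of -0.40 over the list. PHLDA1, an ERK-dependent early gene, fell by 3.81 ± 0.60 (465 ± 420 to 33.1 ± 10.7 CPM, FDR = 0.0113), the EGFR ligand HBEGF by 3.19 ± 0.76 (85.0 ± 87.0 to 9.30 ± 5.59 CPM, FDR = 0.0481) and MYC by 1.83 ± 0.42 (362 ± 169 to 102 ± 51.1 CPM, FDR = 0.0407). PHLDA1 was also the 1 gene of this list called over the 3 lines (-1.66 ± 0.32, FDR = 0.0211). That call was lost without treated SCC1 replicate 1, untreated SCC1 replicate 2, treated SCC25 replicate 2 or treated SCC6 replicate 1 (FDR = 0.0505 to 0.0846), and without untreated SCC6 replicate 1 the value was -1.18 (FDR = 0.0255). With the replicate block 1 gene of the list rose and 5 fell in SCC6, when 20.1% of all genes were called, and 6 rose and 6 fell over the 3 lines, when 21.2% were. Of 13 genes known as AP-1 targets, such as MMP1, PLAU and CXCL8, 0 were called by edgeR in any line. Their median log2 fold change was -0.70 for SCC6, 0.43 for SCC1 and 0.29 for SCC25. With the block, SCC6 had 4 calls, 1 higher and 3 lower, against the same 20.1% of all genes. SCC1 had 1 call with the block, a lower one, and SCC25 had 0. DESeq2 called 2 of these targets for SCC6, 1 for SCC1 and 0 for SCC25. For DESeq2, and for the block outside SCC6, calls over all genes are given below only as counts. Those calls of targets were therefore not set against a share of all genes. Of 13 heat-shock genes, HSPA6 was called in SCC6 (FDR = 0.0388), where the level rested on untreated replicate 1, and with the block 8 were called, all lower, beside 20.1% of all genes in either direction. Without the cells that carried HSPA6 before thinning, the edgeR values in SCC6 were -3.99 for PHLDA1 (FDR = 0.0147) and -2.97 for MAFF (FDR = 0.0314). They were 3.84 for MAF (FDR = 0.0408), -1.95 for MYC (FDR = 0.0434) and -3.35 for HBEGF, which no longer passed (FDR = 0.0507). Without the whole of untreated SCC6 replicate 1, none of the calls of PHLDA1, MAFF, MAF, HBEGF, MYC and HSPA6 in SCC6 held. The log2 fold changes were then -2.35 for PHLDA1, -1.79 for MAFF, 3.27 for MAF, -1.34 for HBEGF, -1.26 for MYC and -1.99 for HSPA6.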

How the data were processed

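Per the labels and the submitters' processing notes, the libraries were processed with Cell Ranger on GRCh38, with no version given in the sources used here. The authors deposited UMI counts per gene and cell, 1 table per line with a table of cells. All 23914 cells were used and no doublet caller was run. Counts were summed per sample and tested with edgeR 4.0.16 (R 4.3.3; TMM, filterByExpr, quasi-likelihood F-test, 6 group means, two-sided, Benjamini-Hochberg FDR, threshold 0.05), in place of the study's test on cells. CPM use TMM factors. Cells were thinned to 15000 UMIs, the lowest of the samples’ 10% quantiles of UMIs per cell rounded down to a multiple of 500, which left out 851 cells (0.847% to 9.18% per sample). Spread was tested with limma 3.58.1 for genes of at least 0.1 mean thinned UMIs. Alternatives used DESeq2 1.42.0, a replicate block, no filter, other cell filters and leaving out each library. The scripts were tested on simulated data.

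Same-numbered samples of a line deviated together from their group means (r = 0.377 in SCC1, 0.349 in SCC6 and 0.598 in SCC25). With 2 replicates a group, both numbers give the same r by design. Paired cultures and a shift common to a replicate number cannot be told apart here. The main fit ignored the numbers, and the replicate block is an alternative to it.

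The members and the gene lists were chosen with earlier results of these data known. All 10 members were named, and from each other list at most 4 genes past the threshold. One result of the lists is not reported here. With 57057402 UMIs or more per sample, the spread between replicates limits the precision for all but rare transcripts.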

Additional observations from a re-analysis of the deposited data

Results flagged for a closer look

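JUN moved in opposite directions in the lines, with both treated samples above both untreated ones in SCC1 (log2 fold change 0.36) and SCC25 (0.31) and both below them in SCC6 (-0.54). The difference between lines did not pass the interaction test (edgeR, FDR = 0.571). Outside its cells with HSPA6, untreated SCC6 replicate 1 held 1.70 thinned UMIs of JUN per cell. Untreated replicate 2 held 1.97 and the treated SCC6 samples 1.69 and 1.83, so that the treatments overlapped in these values. IER3 was higher in both treated samples of SCC6 (0.25) and lower in both of SCC25 (-0.18), with an interaction FDR of 1. Samples of the treatments did not overlap, in either direction, for 42.7% of all genes tested in SCC1, 46.9% in SCC6 and 29.7% in SCC25.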

How the results depend on the processing

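The number of genes called depended on the fit, and the cause was not tested. For the effect of cetuximab, edgeR called 3 genes in SCC1, 682 in SCC6, 0 in SCC25 and 691 across lines, and 0 for the interaction. DESeq2 called 274, 1671, 101, 1831 and 276, the fit with no filter on low counts 243, 1233, 128, 1271 and 248, and the fit with the replicate block 797, 3589, 175, 3797 and 230. The 4 samples of a line alone gave 0 in SCC1 and 265 in SCC6 (members called 0 in place of 1), and leaving out the deepest 5% of cells gave 1 in SCC25. Across lines 0 members were called, against 1 with DESeq2, 1 with no filter and 2 with the block, and for the interaction 1 with no filter. Between untreated lines the members called were 5 (no filter) and 4 (block) in place of 2 for SCC25 against SCC6, and 7 (no filter) and 7 (block) in place of 3 for SCC6 against SCC1. For these comparisons the share of all genes called is given above for the main fit and the block only. The counts with no filter therefore cannot be set against such a share here. Leaving out 1 library gave 0 to 6 genes in SCC1, 11 to 749 in SCC6 (members 0 to 2), 0 to 1 in SCC25, 154 to 659 across lines (members 0 to 1) and 0 to 14 for the interaction. Between untreated lines it gave 4707 to 7491 (SCC25 against SCC1, members 1 to 3), 5313 to 7373 (SCC25 against SCC6, members 0 to 3) and 4754 to 7328 (SCC6 against SCC1, members 1 to 4).

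For the spread between cells, 8 genes were called in SCC1, 7 in SCC6, 5 in SCC25 and 1 across lines. A filter of 0.5 thinned UMIs gave 1, 0, 0 and 0, and the block 0, 0, 1 and 0. An offset of 0.02 gave 17 in SCC1, 16 in SCC6 and 11 across lines. Thinning to 10000 UMIs gave 16 in SCC6, 2 in SCC25 and 12 across lines. Leaving out the deepest 5% of cells gave 14 in SCC6 and 6 across lines, and leaving out cells with HSPA6, chosen after seeing the data, gave 3 in SCC25. Leaving out 1 library gave 3 to 29, 5 to 30, 1 to 4 and 0 to 15.

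Of 511 values of single genes under the other alternatives, 492 kept direction and side of the threshold. The effects that changed sign were all near 0. Across lines FOS was -0.12 and FOSB -0.041 with the block, FOSB -0.0015 and FOSL2 -0.024 without cells with HSPA6, and FOSL2 -0.016 without the deepest cells. JUND in SCC6 was 0.0053 with the block. Apart from the values in the report, the block changed no other call of a member. Leaving out 1 library changed the sign in 43 of 816 values. These belonged to 22 of the 68 single-gene results followed, which include interactions without a sign. All 22 were effects of cetuximab on members. In SCC1 these were EGR1 (-0.34 to 0.086), FOSL2 (-0.062 to 0.34), IER2 (-0.22 to 0.21), IER3 (-0.28 to 0.40), JUNB (-0.044 to 0.18) and JUND (-0.050 to 0.75). In SCC6 they were FOS (-0.28 to 1.06), FOSB (-0.33 to 0.80), FOSL2 (-1.13 to 0.37), IER2 (-0.71 to 0.64), JUNB (-0.48 to 0.19) and JUND (-0.43 to 0.43). In SCC25 they were FOS (-2.63 to 0.45), FOSB (-1.85 to 0.42), FOSL1 (-0.25 to 1.06) and JUNB (-0.89 to 0.23). Across lines they were FOS (-0.69 to 0.34), FOSB (-0.48 to 0.28), FOSL2 (-0.19 to 0.31), IER3 (-0.072 to 0.15), JUN (-0.031 to 0.13) and JUNB (-0.31 to 0.064).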
